A study of Mus musculus with 2 samples.

Results

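The data describe 7 genes that mark resident macrophages, *Pf4*, *Folr2*, *Cd163*, *F13a1*, *Mrc1*, *Cbr2* and *Lyve1*, in control ear skin and in ear skin with allergic contact dermatitis (ACD). The 7 genes, of 27998 in the files, were chosen by their levels in macrophages of these same libraries, where they were lower in ACD, so their difference in those cells is given below as a description. Each condition was 1 library of single cells from the ears of ICR mice aged 7 to 8 weeks (male, per the study's methods), and how many ears or mice went into a library is not given in the sources used here. The ACD mice were sensitized with 25 uL of 1.0% 2,4-dinitrofluorobenzene (DNFB, a hapten that binds skin proteins) on the back, were painted on each ear with 20 uL of 0.2% DNFB after 6 days, and were sampled at 60 hr. The control library came from healthy ears, and whether those mice were sensitized or painted with solvent is not given in the sources used here. Neither condition has a replicate among the samples used here and nothing could be tested between them, so a difference of condition cannot be told apart from a difference between the libraries.

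Macrophages that live in the dermis take up debris, iron-laden hemoglobin and microbes, and lie along vessels and nerves. Several of their typical genes encode surface receptors for such cargo. In inflamed skin, monocytes enter from blood and can turn into macrophages and dendritic cells, while Langerhans cells are the antigen-presenting cells of the epidermis. *C1qa*, *C1qb* and *C1qc* encode the chains of complement C1q, which macrophages make, and were used here to find the cells.

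The member genes encode receptors, a chemokine and enzymes. The receptors are *Mrc1* (the mannose receptor CD206, ENSMUSG00000026712, chr2:14229392-14332057), *Cd163* (the receptor for hemoglobin bound to haptoglobin, ENSMUSG00000008845, chr6:124304656-124330527), *Folr2* (a folate receptor, ENSMUSG00000032725, chr7:101839988-101857194) and *Lyve1* (a hyaluronan receptor that lymphatic vessels also carry, ENSMUSG00000030787, chr7:110850607-110863239). *Pf4* encodes the chemokine CXCL4, known also from platelets (ENSMUSG00000029373, chr5:90772435-90773383). *F13a1* encodes the A chain of coagulation factor XIII, an enzyme that crosslinks fibrin (ENSMUSG00000039109, chr13:36867178-37050244). *Cbr2* encodes a carbonyl reductase (ENSMUSG00000025150, chr11:120729489-120732114). Positions are on GRCm38, and all 7 are protein-coding.

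To show what lies before these genes, the 250 bases upstream of each RefSeq start (GRCm38.p6) were searched on both strands for the PU.1 core GAGGAAGT, the MAF-bound letters TGCTGAC and the AP-1 letters TGANTCA. PU.1 and MAF proteins are transcription factors of macrophages, and AP-1 of many cells. The table held 8 promoters of 6 member genes. Of these, 1 held the PU.1 letters, which 2.44% of all 32851 promoters hold, none the MAF letters (3.81%), and 1 the AP-1 letters (6.75%). The pair with a match is printed with the motif in capitals, *Pf4* (plus strand, chr5:90772185-90772434, match from base -10, reverse strand) and the second start of *Folr2* (minus strand, chr7:101845332-101845581, match from base -74), a window that lies inside an intron of a longer *Folr2* transcript:
Pf4: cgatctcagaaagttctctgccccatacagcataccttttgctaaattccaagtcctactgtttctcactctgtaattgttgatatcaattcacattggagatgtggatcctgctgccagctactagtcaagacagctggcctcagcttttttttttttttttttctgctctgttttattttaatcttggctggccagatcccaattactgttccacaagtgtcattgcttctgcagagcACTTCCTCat
Folr2: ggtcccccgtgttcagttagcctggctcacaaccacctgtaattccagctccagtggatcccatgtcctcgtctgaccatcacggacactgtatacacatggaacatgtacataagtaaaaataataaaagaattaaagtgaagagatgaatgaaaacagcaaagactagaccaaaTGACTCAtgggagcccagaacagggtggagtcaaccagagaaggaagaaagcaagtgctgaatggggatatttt
*Lyve1* had no entry. A match is one of letters alone, and binding was not measured.

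The control library held 12895 barcodes and 99037698 unique molecular identifiers (UMIs, 1 per captured transcript), and the ACD library 13163 barcodes and 126566870 UMIs. A cell was kept if its gene number lay above 200 and below 5000, its UMI total did not pass 25000, and mitochondrial genes made up less than 8% of that total. This left 12213 in control (median 6850 UMIs) and 11665 in ACD (median 7447 UMIs). Of the kept barcodes 47 occurred in both libraries, 0 of them in a C1q-positive cell. A level is the UMI sum of a gene in a group of cells per 1000000 UMIs of that group. UMIs count 3' ends of transcripts and were not scaled by gene length. Throughout, parentheses after a value hold its exact 95% interval, for counting error alone.

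C1q-positive cells, with at least 3 UMIs of *C1qa*, *C1qb* and *C1qc* together and under 3 UMIs of *Cd207* (langerin), were rare in both libraries. There were 21 in control, 0.172% (0.106 to 0.263%) of kept cells, and 25 in ACD, 0.214% (0.139 to 0.316%). The log2 ratio of these shares was 0.32 (-0.58 to 1.23). Leaving out *Cd207* as a criterion would have given 34 and 44 cells. The groups were not alike in other genes. The receptor gene *Csf1r* had a UMI in 20 of 21 control cells and in 17 of 25 cells in ACD, at 923 and 295 UMIs per 1000000. *C1qa* itself was at 2948 in control and 1362 in ACD, and the median cell had 30 and 9 C1q UMIs. *Ccr2*, the chemokine receptor of monocytes, had UMIs in 1 control and 14 ACD cells, and the Fc receptor gene *Fcgr1* in 6 and 16. *Mertk*, a receptor for dying cells, was low in control with 5 UMIs and had 0 in ACD. Markers of the dendritic gate, *Flt3* or *Cd209a*, had a UMI in 10 of 21 control and 0 of 25 ACD cells, and the 10 control cells had 9962 member UMIs per 1000000 against 7855 in the other 11. The platelet genes *Ppbp*, *Itga2b* and *Gp9* had 0 UMIs in both.

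RNA of other cell types was also present in the gate. Summed markers of fibroblasts (5 of 5 genes in each library) were at 5483 UMIs per 1000000 in control and 1245 in ACD, and 1 control cell held 479 of the 731 control UMIs. Markers of T and NK cells had 1 UMI in control and 84 in ACD, and those of chondrocytes 1 and 109. In ACD the T and NK UMIs lay in 8 of 25 cells, with 29 in 1 cell. The chondrocyte UMIs lay in 6 ACD cells, with 80 in 1 cell. The part of these differences in the results below was not tested beyond leaving out such cells.

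The 7 genes were much lower in C1q-positive cells of ACD. Together they had 1204 UMIs in 21 control cells and 25 UMIs in 25 ACD cells, which is 9030 (8527 to 9555) against 139 (89.9 to 205) per 1000000, a log2 ratio of -6.02 (-6.66 to -5.45). *Pf4* alone gave 59.6% of the control UMIs. Among genes with at least 50 UMIs in these cells over both libraries, 13.1% (114 of 870) were at least 2-fold lower in ACD after 10 UMIs per 1000000 had been added to each side. Of the 7 genes 5 had 50 UMIs, and all 5 were in that group, at ranks 2, 3, 4, 6 and 13 from the lowest. *Cbr2* with 40 UMIs and *Lyve1* with 12 had too few to be ranked. Since each of the 5 passed through its control UMIs and was chosen for this contrast, nothing is read from the count. Fewer cells of a resident kind and less RNA of these genes per cell cannot be told apart here, because the gate rests on C1q alone.

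The chemokine gene *Pf4* was the highest in control. It had 717 UMIs in 20 of 21 control cells, 5378 (4991 to 5786) per 1000000, and 11 UMIs in 5 of 25 ACD cells, 61.1 (30.5 to 109), a log2 ratio of -6.46 (-7.47 to -5.61). It was not absent in ACD, where single cells had up to 4 UMIs, while the median control cell had 25 and the highest 191.

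Of the receptors, *Mrc1* had the highest level left in ACD. Its level was 1073 (904 to 1263) in control, with 143 UMIs in 20 cells, and 72.2 (38.5 to 124) in ACD, with 13 UMIs in 7 cells, a log2 ratio of -3.89 (-4.84 to -3.07). *Cd163* had 93 UMIs in 13 control cells, 698 (563 to 855) per 1000000, and 0 in ACD. *Folr2* had 50 UMIs in 15 control cells, 375 (278 to 494) per 1000000, and 0 in ACD. Both were at 0 in every ACD cell, so their ratios are bounds. Taking 3 UMIs in the ACD group as the limit that a count of 0 allows, *Cd163* was at least 41.8-fold lower and *Folr2* at least 22.5-fold lower. *Lyve1* had 12 UMIs in 3 control cells, 10 of them in 1 cell, and 0 in ACD, at least 5.40-fold lower. So the *Lyve1* value rests on 1 cell.

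The enzyme genes were lower as well. *F13a1* had 149 UMIs in 15 control cells, 1118 (945 to 1312) per 1000000, and 1 UMI in ACD, 5.56 (0.141 to 31.0). The log2 ratio, which rests on that UMI, was -7.65 (-12.96 to -5.15). *Cbr2* had 40 UMIs in 12 control cells, 300.0 (214 to 409) per 1000000, and 0 in ACD, at least 18.0-fold lower. In ACD cells, then, *Pf4*, *Mrc1* and *F13a1* were the genes with any UMI, and *Folr2*, *Cd163*, *Cbr2* and *Lyve1* had none. The order of levels in control was *Pf4*, *F13a1*, *Mrc1*, *Cd163*, *Folr2*, *Cbr2* and *Lyve1*. The intervals of *F13a1* and *Mrc1* overlap, as do those of *Folr2* and *Cbr2*.

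**Figure D1:**
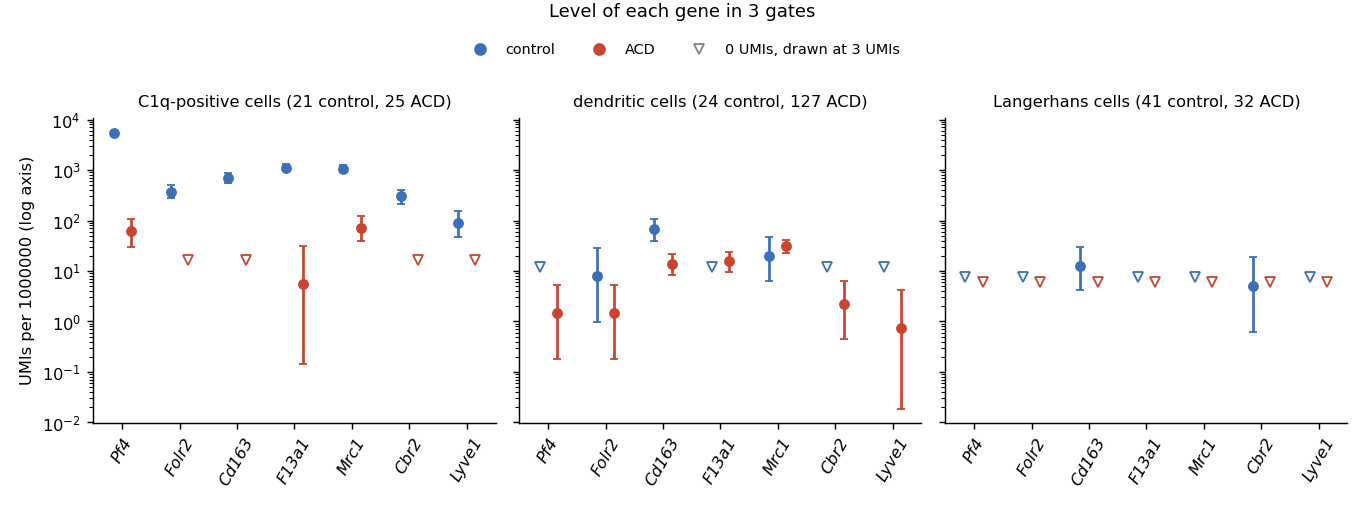
UMIs per 1000000 (log axis) of each gene in C1q-positive, dendritic and Langerhans cells of control (blue) and ACD (red). Points are levels with exact 95% Poisson intervals, and open triangles are genes with 0 UMIs, drawn at 3 UMIs of that group. In C1q-positive cells every control point lies above the ACD point or triangle, with the widest gap for *F13a1* (1118 against 5.56) and the narrowest drawn for *Lyve1* (90.0 against a triangle at 16.7).

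The difference was spread over the cells. Member UMIs per 10000 UMIs of a cell ranged from 0.765 to 198 over the 21 control cells, with a median of 76.9. Over the 25 ACD cells they ranged from 0 to 29.0, with a median of 0, and 14 cells had none. The groups overlapped, since 3 of the 21 control cells lay at or below the highest ACD cell. That ACD cell was shallow, with 1034 UMIs of which 3 were of member genes. The control sum leaned on a few cells, as the richest cell (322 of its 16229 UMIs) gave 26.7% of it and the richest 3 cells 45.0%.

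**Figure D2:**
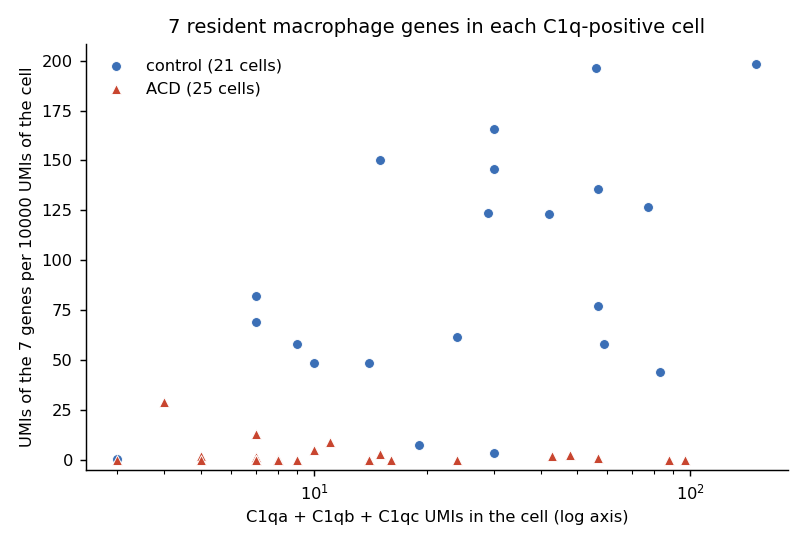
Each point is 1 C1q-positive cell, control as blue circles and ACD as red triangles, with its C1q UMIs on a log axis against its UMIs of the 7 genes per 10000 UMIs. Of 21 control cells 18 lie above the highest ACD cell, at 29.0.

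Several members in the same cell were found in control and not in the ACD gate. At 2000 UMIs per cell, 12 of 21 control cells (57.1%, 34.0 to 78.2%) had at least 4 of the 7 genes, and 0 of 20 ACD cells, which allows up to 15% (5 shallower ACD cells were left out). Without thinning it was 16 of 21 and 0 of 25. One control cell had all 7 genes. No ACD cell in the gate had more than 2. By gene, the thinned share of cells with a UMI was 90.5% in control and 10% in ACD for *Pf4*, and 81.0% and 5% for *Mrc1*. In chondrocyte-marker cells, the stand-in for background, those shares were at most 0.0821% at median depths of 8025 UMIs in control and 9945 in ACD, against 5434 and 7045 in the C1q gate.

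The cells were also split by their C1q UMIs, as a description only, since the genes were chosen for this contrast. In cells with at least 10 C1q UMIs (17 control, 12 ACD), the 7 genes were at 10580 and 121 UMIs per 1000000, a log2 ratio of -6.45 (-7.36 to -5.67). With 3 to 9 C1q UMIs (4 and 13 cells) they were at 4162 and 165, a log2 ratio of -4.65 (-5.64 to -3.80). Just inside the gate, at 3 to 5 C1q UMIs, the single control cell had 1 member UMI and 4 ACD cells had 5. There the levels lay the other way, at 76.5 and 337, a log2 ratio of 2.14 (-1.02 to 7.70) whose interval includes 0. Just outside it, at 1 or 2 C1q UMIs, 49 control cells had 9 member UMIs and 47 ACD cells had 32, of which 23 were *Lyve1* in 1 cell.

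Within the ACD gate, member UMIs were found in cells with and without monocyte genes. At 2000 UMIs per cell, 7 of 20 ACD cells had a UMI of *Ccr2* or *Ly6c2* (a surface protein of inflammatory monocytes), and they held all 7 member UMIs left after thinning. The other 13 ACD cells had 0. In control, 20 of 21 cells had neither gene and held 367 thinned member UMIs, 18.4 per cell. Without thinning, 15 ACD cells with a *Ccr2* or *Ly6c2* UMI held 19 member UMIs and 10 cells without one held 6. The 15 cells thus had 76% of the member UMIs and 68.1% of all UMIs of the ACD gate, shares that lie close together. *Ccr2* and *Ly6c2* were sparse, with 33 and 14 UMIs in the ACD gate. A cell without a UMI of either is thus not shown to lack them, and the origin of the cells was not tested.

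In dendritic cells, with a UMI of *Flt3* or *Cd209a* and outside both other gates, the 7 genes were low in both libraries. The gate held 24 control and 127 ACD cells, a log2 ratio of their share of 2.47 (1.83 to 3.16). The 7 genes together had 24 and 90 UMIs, 95.6 (61.3 to 142) and 66.4 (53.4 to 81.6) per 1000000, a log2 ratio of -0.53 (-1.19 to 0.19) whose interval includes 0. This rests on keeping C1q-positive cells out, since with the 10 control cells that have both C1q and a *Flt3* or *Cd209a* UMI counted as dendritic the log2 ratio was -5.15. The interval also left out 0 without Scrublet's doublet calls, at -0.92 (-1.59 to -0.20), and without cells that had at least 10 UMIs of other class markers, at -1.41 (-2.15 to -0.62). No member had 50 UMIs here, where 4.88% of 4077 genes were at least 2-fold lower and 6.7% at least 2-fold higher in ACD.

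Within the dendritic gate *Cd163* alone of the 7 genes had an interval that left out 0. *Cd163* was lower in ACD, with 17 UMIs in 7 of 24 control cells and 19 UMIs in 13 of 127 ACD cells, 67.8 and 14.0 per 1000000, a log2 ratio of -2.27 (-3.30 to -1.24). *F13a1* had 0 UMIs in control and 21 in 8 ACD cells, 1.30-fold higher if 3 UMIs are taken for control. The exact interval of its log2 ratio had its lower end at -0.05 and so includes 0. *Mrc1* had 5 and 42 UMIs, a log2 ratio of 0.64 (-0.70 to 2.33). *Pf4*, *Folr2*, *Cbr2* and *Lyve1* had at most 3 UMIs in either library. The gate also differed in monocyte genes, with *Plac8* at 124 per 1000000 in control and 1108 in ACD and *Ccr2* at 112 and 223, and their part in these values was not tested. The dendritic transcription factor gene *Zbtb46* had 10 and 33 UMIs. Fibroblast RNA was present in this gate too, with *Dcn* at 3922 per 1000000 in control and 912 in ACD, and its part in these values was not tested beyond leaving out such cells.

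Langerhans cells, with at least 3 *Cd207* UMIs, had next to none of the 7 genes. In 41 control cells there were 7 UMIs, 5 of *Cd163* in 1 cell and 2 of *Cbr2* in another, and in 32 ACD cells there were 0. The exact interval of the log2 ratio had its upper end at -0.85 and so left out 0. It covers counting error alone, and the 7 UMIs came from 2 control cells. The libraries are thus not told apart by these counts. In all deposited barcodes there were 8 and 7 UMIs, a log2 ratio of -0.61 (-1.80 to 0.66), and without the richest cell 2 and 0. Of 2297 genes with at least 50 UMIs in this gate 3.31% were at least 2-fold lower and 1.96% at least 2-fold higher, and no member had enough UMIs to count among them. *Pf4*, *Folr2*, *F13a1*, *Mrc1* and *Lyve1* had 0 UMIs in both. C1q was not absent from this gate, since 13 control and 19 ACD Langerhans cells had at least 3 C1q UMIs, mostly *C1qa* (100 and 155 UMIs in all).

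Across all kept cells the 7 genes split by where else they are expressed. Of all control UMIs of a gene, the 21 C1q-positive cells held 94.3% for *Pf4*, 83.3% for *Folr2*, 78.1% for *Mrc1* and 72.1% for *Cd163*. They held only 18.0% for *F13a1*, 4.89% for *Cbr2* and 0.772% for *Lyve1*. Over whole libraries, UMIs of the kept cells went from 760 to 74 for *Pf4* (log2 ratio -3.47, -3.84 to -3.13), from 60 to 6 for *Folr2* (-3.43, -4.94 to -2.23) and from 129 to 41 for *Cd163* (-1.77, -2.31 to -1.25). They went from 183 to 157 for *Mrc1* (-0.33, -0.65 to -0.02) and from 818 to 822 for *Cbr2* (-0.11, -0.25 to 0.04). *F13a1* went from 827 to 496 (-0.85, -1.01 to -0.69) and *Lyve1* from 1554 to 1238 (-0.44, -0.55 to -0.33). Summed over all cells, *F13a1*, *Mrc1*, *Cbr2* and *Lyve1* thus differed by less than 2-fold.

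Outside the gates, cells were put in classes by marker genes, and 4550 control and 2575 ACD cells stayed without a class. *Lyve1* was mainly in lymphatic endothelial cells, which held 89.3% of its control and 91.0% of its ACD UMIs, at 1558 and 1258 per 1000000, a log2 ratio of -0.31 (-0.42 to -0.19). In the small blood endothelial class (48 control, 53 ACD cells) it was lower in ACD, at 186 and 24.6 per 1000000 (-2.92, -3.77 to -2.14). This rests on few cells, with 72 UMIs in 6 control cells and 17 in 5 ACD cells. A single control cell held 28 of these UMIs and a single ACD cell 7. *F13a1* was most abundant by UMIs in fibroblasts, which held 49.6% of its control UMIs, at 18.6 in control and 8.38 in ACD (-1.15, -1.40 to -0.90), and was higher in ACD chondrocyte-marker cells, at 3.42 and 8.23 (1.27, 0.86 to 1.69). *Cbr2* was at 16.5 and 27.7 in chondrocyte-marker cells (0.74, 0.54 to 0.94) and at 42.3 and 60.3 in keratinocytes (0.51, 0.11 to 0.91). *F13a1* and *Cbr2* were thus lower in the C1q-positive cells of ACD and higher in its chondrocyte-marker cells.

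Cells with other macrophage markers and under 3 C1q UMIs had more member UMIs in ACD. In these cells (64 control, 56 ACD) the 7 genes had 25 and 77 UMIs, 37.9 and 142 per 1000000, a log2 ratio of 1.90 (1.24 to 2.62). A single ACD cell held 45.5% of the ACD UMIs, and without it the level was 77.9 and the log2 ratio 1.04 (0.29 to 1.81). *Mrc1* went from 0 to 32 UMIs in 11 of 56 cells, whereas all 20 *Pf4* UMIs of that class were in 1 cell. That same cell was one of 3 ACD cells with at least 4 of the 7 genes, none of them C1q-positive, while all 16 such control cells were. It had 4209 UMIs with 20 of *Pf4*, 6 of *Mrc1*, 5 of *F13a1*, 2 of *Cd163* and 2 of *Cbr2*, 7 of *Csf1r*, 7 of *Chil3* and 0 of C1q. Another, of the monocyte class with 2755 UMIs, had 7 of *Pf4*, 4 of *Cd163*, 4 of *F13a1*, 11 of *Chil3*, 4 of *Ccr2* and 0 of C1q. The third was in the dendritic gate, with 9 *Ccr2* UMIs.

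**Figure D3:**
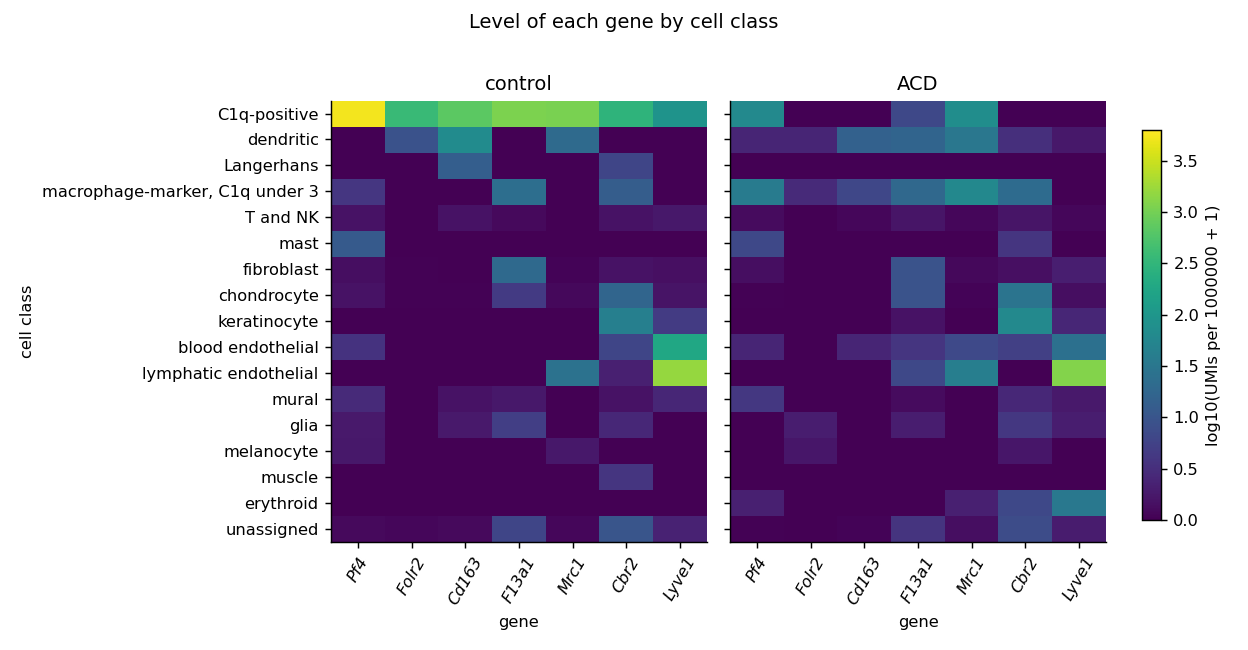
Level of each gene by cell class as log10(UMIs per 1000000 + 1), with control on the left and ACD on the right, for classes with at least 20 cells in each library. The C1q-positive row is bright in control (*Pf4* at 5378) and dark in ACD (61.1), while *Lyve1* in lymphatic endothelial cells stays at 1558 and 1258.

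Other genes of macrophages were compared in the same C1q-positive cells from 5 lists, using genes with at least 20 UMIs. Over all 2453 such genes the median log2 ratio was -0.08, 16.3% were at least 2-fold lower and 11% at least 2-fold higher. The lists were chosen with earlier results of these data known, and the minimum applies to the sum of both libraries, so a gene high in 1 library alone passes only where it differs, and the counts are a description. Of 26 other resident macrophage genes 20 had enough UMIs, and 18 of them were at least 2-fold lower and 0 higher, with a median of -2.77. Of these 18 genes 12 reached 20 UMIs in control alone, and 3 had 0 UMIs in ACD. All 7 members, which were picked for this contrast and include *Lyve1* with 12 UMIs, had a median of -5.27. The lectin gene *Cd209d* went from 46 UMIs to 0, at least 20.7-fold lower, *Clec10a* from 36 to 0, at least 16.2-fold lower, the bridging molecule *Gas6* from 83 to 2 and the chemokine gene *Ccl24* from 59 to 1. The lipid carrier *Apoe* (5348 and 3195 per 1000000, log2 ratio -0.74) and the chemokine gene *Ccl8* (2115 and 1489, -0.51) were within 2-fold, and both rest on single cells. For *Apoe* 1 ACD cell held 44% of the ACD UMIs, and without it the log2 ratio was -1.44 (-1.63 to -1.25). For *Ccl8* 1 control cell held 140 of 282 UMIs and 1 ACD cell 105 of 268, and the log2 ratio was 0.46 (0.16 to 0.76) without the first and -1.14 (-1.43 to -0.86) without the second.

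Genes listed as general macrophage markers were mixed. Of 16 in the list, 14 were measured, 7 were lower, 2 higher and the median was -0.83. The protease gene *Lgmn* (log2 ratio -2.64, -3.11 to -2.19), *Ms4a7* (-2.28, -2.87 to -1.72), *Cd68* (-1.88, -2.39 to -1.39) and *Csf1r* (-1.65, -2.14 to -1.17) were lower. *Aif1*, with 19 and 155 UMIs (2.60, 1.90 to 3.37), and *Fcgr1*, with 7 and 37 (1.97, 0.79 to 3.38), were higher.

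The remaining lists lay on the other side. Of 14 monocyte genes 6 were measured, 4 were higher and 0 lower (median 2.82), led by *Plac8* and *Ms4a4c*, at 0 UMIs in control and 24 and 22 in ACD, at least 5.93-fold and 5.43-fold higher. *Fn1* (fibronectin) had 5 and 70 UMIs, 49 of the 70 in 1 of the 6 ACD cells that had any, and without that cell the log2 ratio went from 3.37 to 1.78 (0.33 to 3.54). Of 20 inflammatory genes 13 were measured, 8 were higher and 0 lower (median 3.47). The cytokine gene *Il1b* had 2 UMIs in control and 551 in ACD, the chemokine gene *Cxcl9* 0 and 293 in 10 cells, at least 72.4-fold higher, and *Ptgs2* (cyclooxygenase-2) 0 and 146 in 7 cells, at least 36.1-fold higher. Without the richest ACD cell *Cxcl9* had 143 UMIs and *Ptgs2* 81. All 4 higher monocyte genes and all 8 higher inflammatory genes reached 20 UMIs in ACD alone, so these counts too are tilted by the minimum. *Tnf* did not differ beyond counting error, at 165 and 178 per 1000000 (log2 ratio 0.11, -0.72 to 0.96). Of 8 antigen presentation genes 6 were measured and all 6 were higher (median 1.88), with *H2-Ab1* at 1665 and 10147 (log2 ratio 2.61, 2.41 to 2.82) and *Cd74* at 4725 and 16622 (1.81, 1.69 to 1.94). *H2-Eb1* was within 2-fold without its richest ACD cell, at 0.53 (-0.01 to 1.08) in place of 1.18. The C1q gate was set here and is not the study's macrophage cluster, so these values hold for the gated cells alone.

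**Figure D4:**
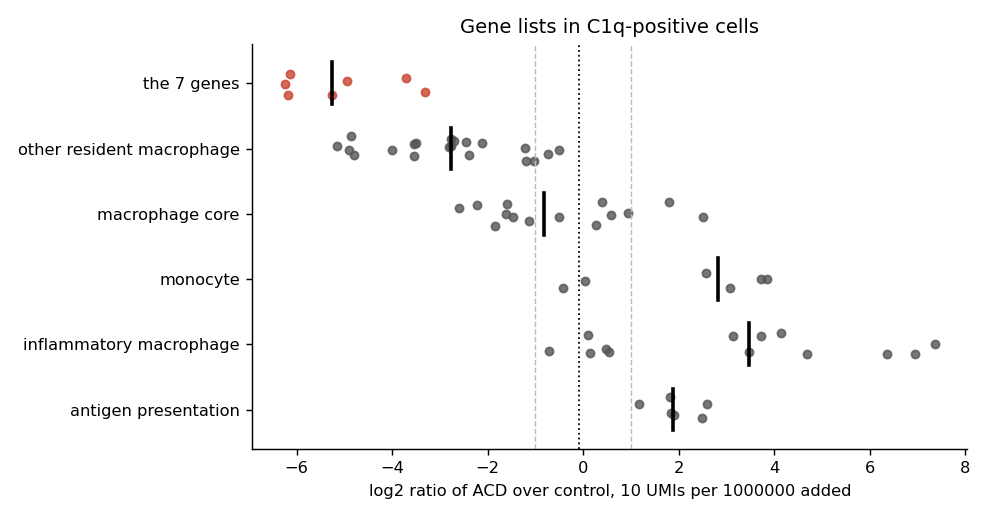
Log2 ratio of ACD over control in C1q-positive cells, 10 UMIs per 1000000 added, for the 7 genes and for each gene of the 5 lists with at least 20 UMIs. Black bars are medians, the dotted line is the median of all 2453 genes (-0.08), and dashed lines mark 2-fold. The 7 genes have a median of -5.27, the other resident macrophage genes -2.77 and the inflammatory genes 3.47.

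Likeness to the 7 genes was measured across cell classes. Over 16 classes in both libraries (32 profiles), Pearson's r between a gene's log2(UMIs per 1000000 + 10) and the mean of the 7 genes was highest for *Ccl24*, at 0.94. *Wwp1* (0.82), *Ms4a7* (0.81), *C1qc* (0.77), *Ap2a2* (0.76), *Mfsd1* (0.75), *Lgmn* (0.75), *C1qb* (0.74), *Stab1* (0.74) and *Fxyd2* (0.73) followed, of 870 genes compared. The classes of a library share its depth and handling, *C1qb* and *C1qc* set the gate, and the values are a description. Among the members r was from 0.86 to 0.93 for the 5 with 50 UMIs, 0.72 for *Cbr2* and 0.46 for *Lyve1*. The mean is of these same 7 genes, which were chosen together, so nothing is read from the r of the members.

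In the ranking of 870 genes, *Pf4*, *F13a1*, *Cd163* and *Fxyd2* were among the 5 lowest in ACD. *Fxyd2*, a subunit that modulates the sodium pump, went from 244 UMIs to 4. The highest 5 were *Cxcl9*, *Il1b*, *AW112010*, *Ptgs2* and *Rgs1*, of which *AW112010* had 0 and 159 UMIs and *Rgs1* 0 and 96. At that end 12.5% of genes were at least 2-fold higher.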

How the data were processed

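Single-cell RNA was measured in 1 ear-skin library for control and 1 for ACD. The authors digested the skin, removed dead cells, made 10x 3' v2 libraries and aligned them to mm10-1.2.0 with Cell Ranger (3.1.0 per the labels). What they deposited is a table of raw UMI counts for every gene in every barcode, and only these counts were used. Methods give the 25000-UMI limit as a lower one, which was read as an upper limit, and they state fewer cells than this filter leaves.

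From the counts, cells were gated on marker UMIs and member UMIs were summed. The dendritic gate excluded cells of the other gates. Other cells went to the class with the highest log2 of observed over expected marker UMIs, if at least 0.5 with 2 markers found. This cut was set after the class sizes had been seen, and such a class is a marker call, not a type. Poisson, Clopper-Pearson and conditional binomial intervals were used, and UMIs from free RNA are not separated. Doublets were left in, and Scrublet calls were removed as an alternative. Ratios against 0 take 3 UMIs. Thinning used seed 1. Ranks used genes with at least 50 UMIs, lists at least 20, both with 10 UMIs per 1000000 added. Named genes were the 7 members, gate markers, 4 lowest and 3 highest genes of each list (a selection is printed), the 10 most alike by pattern and 5 at each rank end. The *Dcn* values, the *Lyve1* cell outside the gate and the 3 member-rich ACD cells were chosen after their values were seen. The members and lists were chosen with earlier results of these data known. Python 3.11.15, numpy 2.4.6, scipy 1.17.1, scanpy 1.11.5 and matplotlib 3.10.9 were used, and the scripts were tested on simulated data. Positions come from GENCODE M21 (27645 of 27998 identifiers found). Results for some genes are not reported here, and flow cytometry, staining and other assays were not analysed here.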

Additional observations from a re-analysis of the deposited data

How the results depend on the processing

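No paired analysis was possible because each condition was 1 library and no replicate could be left out or blocked. The log2 ratio of the 7 genes in C1q-positive cells was -6.02 and stayed negative under every alternative run. It moved beyond its counting interval to -5.04 as a mean over cells, and to -4.23 with macrophage-marker and monocyte-marker cells added, an alternative chosen after seeing the data. In dendritic cells it went from -0.53 to -5.15 with the C1q-positive cells that have a *Flt3* or *Cd209a* UMI kept in, also chosen after seeing the data. It went to -1.41 without cells with at least 10 UMIs of other class markers and to -0.92 without Scrublet calls, both with intervals below 0, and the cause was not tested. The number of genes at least 2-fold lower went from 114 of 870 to 400 of 2453 with at least 20 UMIs. Their share went from 13.1% to 16.3%. The share of control cells with at least 4 of the 7 genes went from 57.1% to 28.6% at 1000 UMIs per cell and to 90.5% for at least 2 genes. All 84 values of single members stayed at least 2-fold lower, and 12 of them moved beyond their intervals. With the richest cell of a gene left out of 1 library at a time, also chosen after seeing the data, 9 of 95 values over 50 list genes crossed 2-fold, and *Ccl8* went from -0.51 to 0.46. In Langerhans cells the sum went from 7 and 0 UMIs to 8 and 7 in all barcodes. Scrublet called 4.59% of control and 3.36% of ACD cells and none in the C1q gate. The C1q gate has few cells and UMIs, so counts of 0 set only bounds.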
